A study of Mus musculus with 6 samples.

Results

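Integrins are the cell surface receptors that hold a fibroblast to its matrix, and focal adhesions are the protein assemblies that tie their cytoplasmic tails to actin. The genes described here are 36 genes of this system, namely 12 integrin alpha subunits, 8 integrin beta subunits and 16 proteins of the focal adhesion. They were chosen by gene symbol, with earlier results of these data known, and all 36 were found among the 34745 genes of the deposited table. RNA-seq had been performed on NOR-10, an established mouse cell line of skeletal muscle fibroblasts. The control group was given PBS and the D-gal group 20 mg/mL D-gal (D-galactose, used to induce ageing of cells) for 3 days, with 3 libraries in each group. Both groups are the same cell line with no other agent named, so the data describe 1 line in culture and not muscle tissue. It is not stated whether the replicates were separate cultures, so that p-values measure the spread between these libraries, which may be technical.

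An integrin is a pair of 1 alpha and 1 beta subunit, and the pair decides the ligand. Some alpha subunits bind collagens, some bind laminins, and others recognise the RGD motif of fibronectin, vitronectin and the latent form of TGF-β. The tails have no enzyme activity of their own. Talins and kindlins bind the beta tail and switch the receptor to its active form, vinculin reinforces the link to actin, focal adhesion kinase and Src carry the signal, and the complex of ILK, PINCH and parvin forms a further bridge to actin.

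Library totals lay between 13759108 and 20830349 counts, with every control library (at least 16876087) deeper than every D-gal library (at most 15157064). Counts were normalized by edgeR's TMM method, and 13407 genes with enough counts were tested. Fibroblast markers were present, with 9 of 10 tested. Of these 6 (66.7%) were lower and 1 (11.1%) higher under D-gal, beside 17.8% and 16.9% of all genes tested. Of 10 muscle cell markers 1 had enough counts to be tested. Of 5 endothelial markers 4 were tested, with summed normalized counts of 74.1 to 106 per library. Of 5 epithelial markers 1 was tested, and their summed normalized counts were 121 to 146 in control and 29.5 to 48.2 under D-gal. The control 1 library stood apart in macrophage and leukocyte markers. The summed normalized count of that list, 9 identifiers of which 3 were tested and 2 were at 0 throughout, was 849 in control 1, 213 and 166 in the other control libraries and 147 to 156 under D-gal.

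The expression level of the receptors was concentrated in a few subunits. Levels between genes are compared here in FPKM, the authors' value scaled by gene length and by library size, as mean ± SD of 3 libraries. Among alpha subunits of the control group, Itga5 (the fibronectin receptor subunit) had 65.2 ± 0.923 FPKM, Itga3 (a laminin receptor subunit) 22.5 ± 0.385 and Itgav (the vitronectin receptor subunit) 12.3 ± 5.23. Itga11 with 4.09 ± 0.161 and Itga1 with 3.60 ± 0.157, both collagen receptor subunits, followed, and the other 7 lay at 1.05 FPKM or below. The lowest alpha subunits were not separated, since the ranges of Itga10, Itga8, Itga4 and Itga2 each overlapped with that of the next. Among beta subunits Itgb1, the common partner of most alpha subunits, had 190.1 ± 4.90 FPKM and Itgb5 39.8 ± 1.0, while Itgb3 had 1.87 ± 0.0827 and the other 5 stayed under 0.4.

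Levels on the cytoplasmic side also spanned a wide range. The actin crosslinker Flna led in the control group with 166 ± 7.09 FPKM, before Vcl (vinculin) with 154 ± 2.01 and Tln1 (talin) with 72.8 ± 1.61. The lowest of the 16 was Tns1 (a tensin, which binds actin and beta tails) with 2.58 ± 0.0742, and the ranges of Lims1 and Zyx and those of Pxn and Tln2 overlapped. The gene lengths behind the FPKM values differ from the merged exons of the annotation, for example 5984 against 18599 bases in Itga1. With merged exons the level of Itga1 was 1.16 on the same scale instead of 3.60, so that close ranks between genes are not firm. In control the first 6 alpha subunits and the first 3 of the focal adhesion proteins had the same rank by both lengths, but under D-gal the order of Itga1 and Itga11 and that of Bcar1 and Tln1 depended on the length used.

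**Figure D1:**
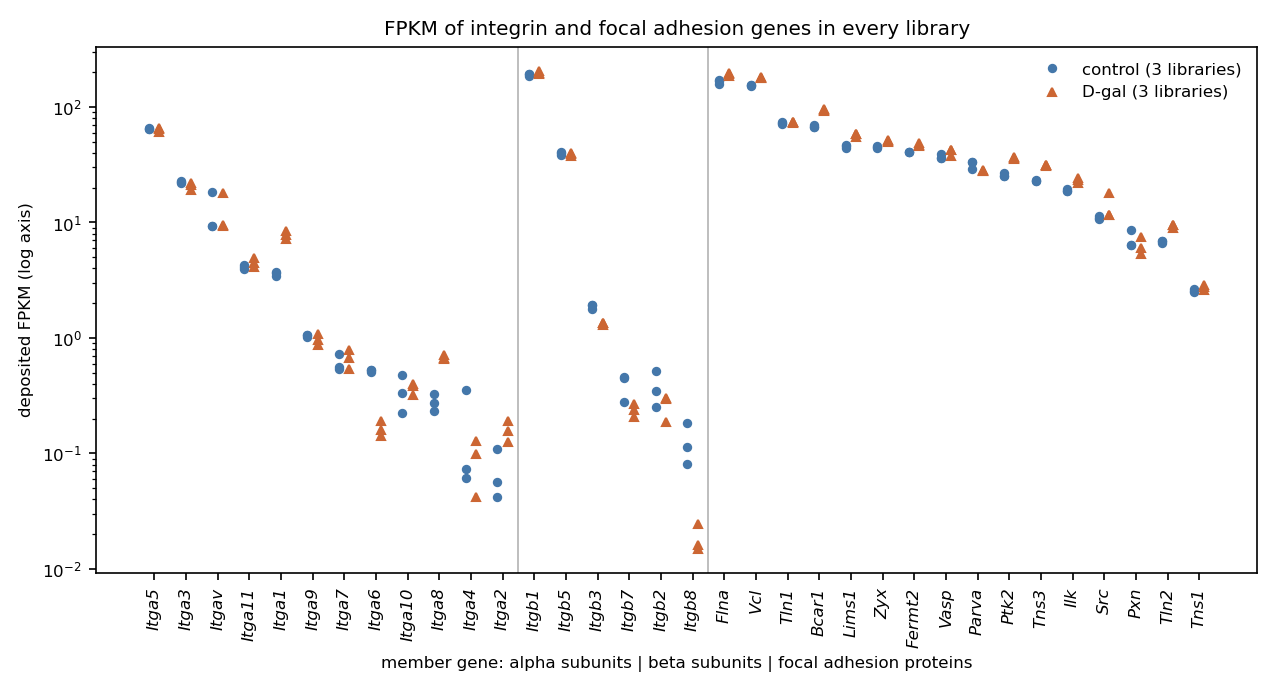
FPKM on a log axis of the member genes in each library, with alpha subunits, beta subunits and focal adhesion proteins from left to right, each ordered by its level. Points are control and triangles D-gal libraries (3 each), Itgb4 and Itgb6 are left out since they are at 0 in at least 1 library, and the separated pairs of Itga1, Itga6, Itga8 and Itgb8 contrast with the near equal levels of Itga5, Itgb1 and Tln1.

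Changes under D-gal were read from the quasi-likelihood test of edgeR, adjusted by Benjamini and Hochberg over all 13407 genes. A gene is said to have risen or fallen where the adjusted p was under 0.05, and to be differentially expressed where the log2 fold change was also at least 1 in size. Of the 36 members 34 were tested, of which 12 rose, 4 fell and 18 did not pass. The share that rose was 35.3%, beside 16.9% of all genes tested, and the share that fell was 11.8%, beside 17.8%. In either direction 47.1% of the members and 34.8% of all genes tested passed. Itga1, Itga8, Itga6 and Itgb8 were differentially expressed, 4 of 34 members, beside 4.21% of all genes. In 19 of the 34 members (55.9%) all D-gal libraries lay on one side of all control libraries, beside 49.1% of all genes. The median log2 fold change of the members was 0.06, and that of all genes tested 0.0036. By role, 27.3% of the alpha subunits, 28.6% of the beta subunits and 68.8% of the focal adhesion proteins passed.

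**Figure D2:**
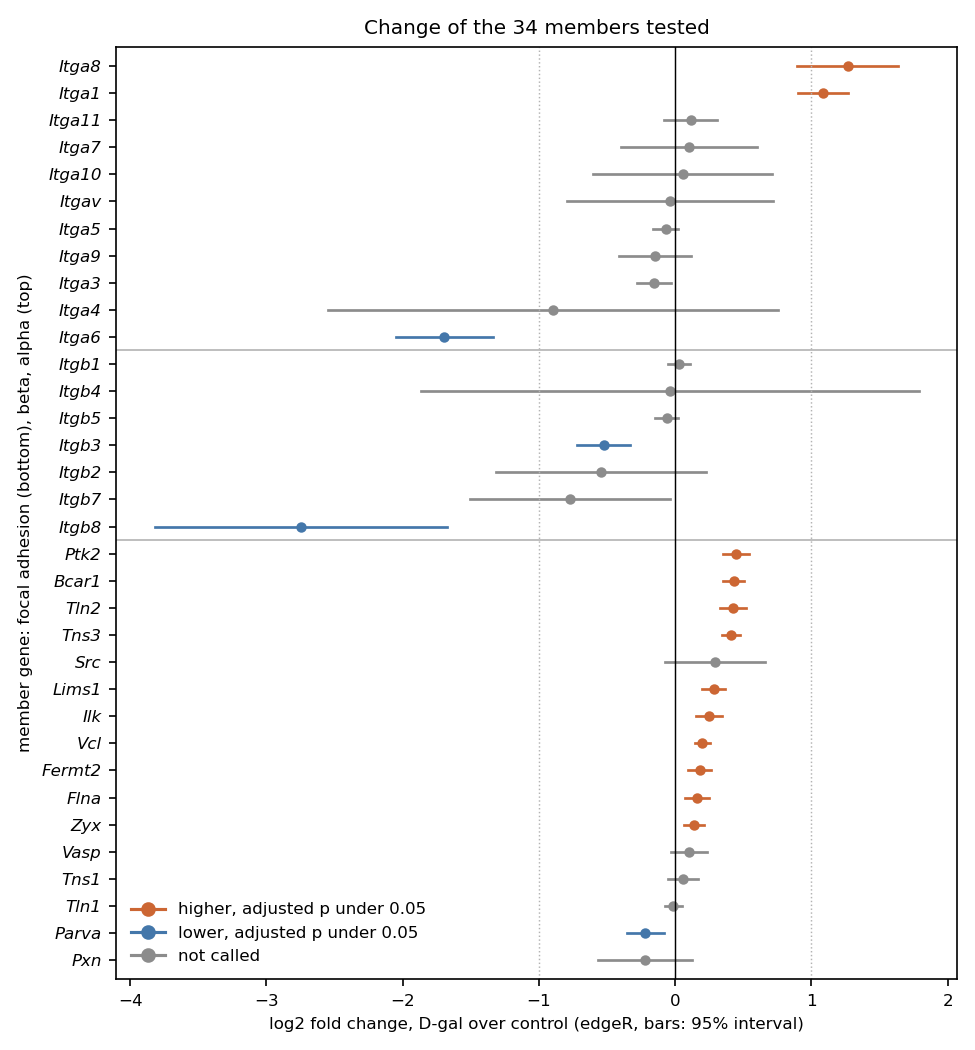
Log2 fold change (D-gal over control) of the 34 members tested, by role, with bars for the 95% interval from edgeR's quasi-likelihood test and dotted lines at a change of 1 in size. Most focal adhesion proteins lie between 0.1 and 0.5 with short bars, while the subunits past the dotted lines are Itga1 and Itga8 above and Itga6 and Itgb8 below.

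Of the 12 alpha subunits 11 were tested, of which 2 (18.2%) rose, 1 (9.09%) fell and 8 did not pass. Of all genes tested 16.9% rose and 17.8% fell. Both alpha subunits that rose are partners of Itgb1. Itga1, whose protein binds collagen IV and other collagens, had 373, 348 and 378 normalized counts in control and 848, 711 and 774 in D-gal libraries. All D-gal libraries were thus well above the control libraries, and the log2 fold change was 1.09 (SE 0.08, adjusted p = 4.95e-05). Itga8, whose protein binds nephronectin and fibronectin through RGD, had 45.3, 38.4 and 54.5 normalized counts in control and 109, 116 and 106 in D-gal libraries. Its groups did not overlap either, with a log2 fold change of 1.27 (SE 0.16, adjusted p = 0.000683). At 0.278 ± 0.0485 FPKM in control and 0.681 ± 0.0321 under D-gal, Itga8 remained a minor subunit beside Itga5.

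Itga6 encodes a laminin receptor subunit that pairs with Itgb1 or Itgb4. It had 109.8, 111 and 107 normalized counts in control and 39.3, 32.8 and 28.9 in D-gal libraries. The control libraries agreed closely and the highest D-gal library was far below them, with a log2 fold change of -1.69 (SE 0.15, adjusted p = 0.000135). Itga3, the laminin receptor subunit with the higher level, had a log2 fold change of -0.15 (adjusted p = 0.0587), with 2458, 2133 and 2379 normalized counts under D-gal and 2539, 2632 and 2585 in control. Its groups did not overlap, but it missed the threshold. It passed without the D-gal 1 library (adjusted p = 0.0327) and without a filter on low counts (adjusted p = 0.0453).

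The alpha subunit with the highest level, Itga5, did not pass. Itga5 had 4830.4, 4929 and 4807 normalized counts in control and 4813, 4395 and 4680.1 in D-gal libraries. The ranges overlapped, and the 95% interval of its log2 fold change was -0.16 to 0.02. Itga11, the collagen receptor subunit of fibroblasts, had a log2 fold change of 0.11 (interval -0.08 to 0.31), so that its level, unlike that of Itga1, did not pass. Itga9, a receptor subunit for tenascin-C among others, had -0.15 (adjusted p = 0.36), and Itga7, the laminin receptor subunit of muscle fibres, had 0.10 (adjusted p = 0.753). Itga10 had 0.06 (adjusted p = 0.903), but it overlaps another annotated gene on its strand and its value is uncertain. Itga2, a collagen receptor subunit, was not tested, with 9, 5 and 3 counts in control and 12, 8 and 9 in D-gal libraries.

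In the deposited table Itga1 (ENSMUSG00000042284) lies at 114958079 to 115101964 on the minus strand of chromosome 13, Itga6 (ENSMUSG00000027111) at 71745616 to 71858416 on the plus strand of chromosome 2 and Itga8 (ENSMUSG00000026768) at 12106632 to 12301922 on the minus strand of chromosome 2. The build of the table was not given in the sources used here, but 26 of the 36 members had the same start and end as in GENCODE release M21 on GRCm38, Itga6 and Itga8 among them. Itga1 shares 685 exon bases with the annotated gene Gm49395 on its strand.

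For Itga4, 1 library decided the value. The protein, which binds fibronectin and VCAM-1, is best known from leukocytes. Itga4 had 94.1 normalized counts in control 1 but 19.6 and 16.2 in controls 2 and 3, and D-gal libraries had 25.8, 32.8 and 10.8. Without control 1 the log2 fold change turned from -0.90 (adjusted p = 0.375) to 0.37 (adjusted p = 0.586). Control 1 was the library with the higher macrophage markers, Lyz2 (lysozyme) with 546 normalized counts beside 54.6 to 93.0 in the other 5 libraries, Csf1r with 123 beside 14.6 to 31.01 and Cd68 with 146 beside 51.5 to 74.3. Ptprc, the common marker of leukocytes, had 13 counts there and 0 to 3 elsewhere. The part of these markers in the value of Itga4 was not tested. In bulk RNA, fewer cells of a type and less RNA per cell cannot be told apart.

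None of the 7 beta subunits tested rose (0 by edgeR, 0 by DESeq2 and 0 at an unadjusted p under 0.05), beside 16.9% of all genes tested. Of the 7, 2 (28.6%) fell, beside 17.8% of all genes tested, and 5 did not pass. With 7 genes such shares are coarse. Itgb8, which pairs with Itgav alone and binds latent TGF-β, had 26.1, 18.8 and 42.4 normalized counts in control and 3.37, 5.46 and 3.61 in D-gal libraries. The control libraries varied among themselves, yet the lowest of them was above every D-gal library, with a log2 fold change of -2.75 (SE 0.47, adjusted p = 0.00283). The D-gal values rest on 3, 5 and 3 counts as deposited, and the 95% interval of the log2 fold change reached from -3.82 to -1.67. Itgb3, the beta subunit of the classical vitronectin receptor, had 259.7, 282 and 282 normalized counts in control and 194, 193 and 184 in D-gal libraries. The groups did not overlap, with a log2 fold change of -0.52 (SE 0.08, adjusted p = 0.00217). Itgb3 lies at 104608000 to 104670476 on chromosome 11 (plus strand) and Itgb8 at 119158022 to 119238802 on chromosome 12 (minus strand), as in GENCODE.

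Itgb1 had 17692, 18599 and 18528 normalized counts in control and 19375, 17996 and 18465 in D-gal libraries. The groups overlapped, and with a 95% interval of -0.05 to 0.11 for the log2 fold change the common beta subunit differed little between groups at this precision. Itgb5, a further partner of Itgav, had a log2 fold change of -0.06 (interval -0.15 to 0.02). Of the beta subunits known mainly from leukocytes, Itgb7 had -0.77 (adjusted p = 0.0967) and Itgb2 -0.54 (adjusted p = 0.248). The highest value of Itgb2, 41.0 normalized counts, was in control 1, beside 14.5 to 27.7 in the other libraries, and without this library its log2 fold change was -0.24. Itgb4, the hemidesmosome subunit, had -0.04 (interval -1.87 to 1.79), an interval too wide for any statement, and Itgb6, the epithelial partner of Itgav, was not tested, with 1 count in control 1 and 0 in every other library.

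The share of each class of receptor in the alpha subunit mRNA was computed per library from the FPKM values. Collagen-binding subunits (Itga1, Itga2, Itga10 and Itga11) made up 7.32 ± 0.391% of the summed alpha FPKM in control and 11.5 ± 0.803% under D-gal (SD, n = 3). All D-gal libraries were above all control libraries (exact permutation test, two-sided, p = 0.1, the smallest that 3 against 3 libraries allow). Laminin-binding subunits (Itga3, Itga6 and Itga7) made up 21.4 ± 0.827% in control and 19.2 ± 1.17% under D-gal, again without overlap (p = 0.1, exact permutation test). RGD-binding subunits (Itga5, Itga8 and Itgav) held 70.2 ± 1.28% and 68.3 ± 2.02% with overlapping libraries (p = 0.3, exact permutation test), and Itga4 and Itga9 together held 1.10 ± 0.192% and 0.943 ± 0.0861% (p = 0.3, exact permutation test). The difference in the collagen-binding share, 4.17 percentage points, was 1.86 points with the merged exon length, by which Itga1 counts for less, and that in the RGD-binding share turned from -1.86 to 0.31 points. The summed alpha FPKM was 111 ± 4.51 in control and 112 ± 1.11 under D-gal (p = 0.7, exact permutation test), and the summed beta FPKM 233 ± 5.76 and 239 ± 5.78 (p = 0.3, exact permutation test).

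**Figure D3:**
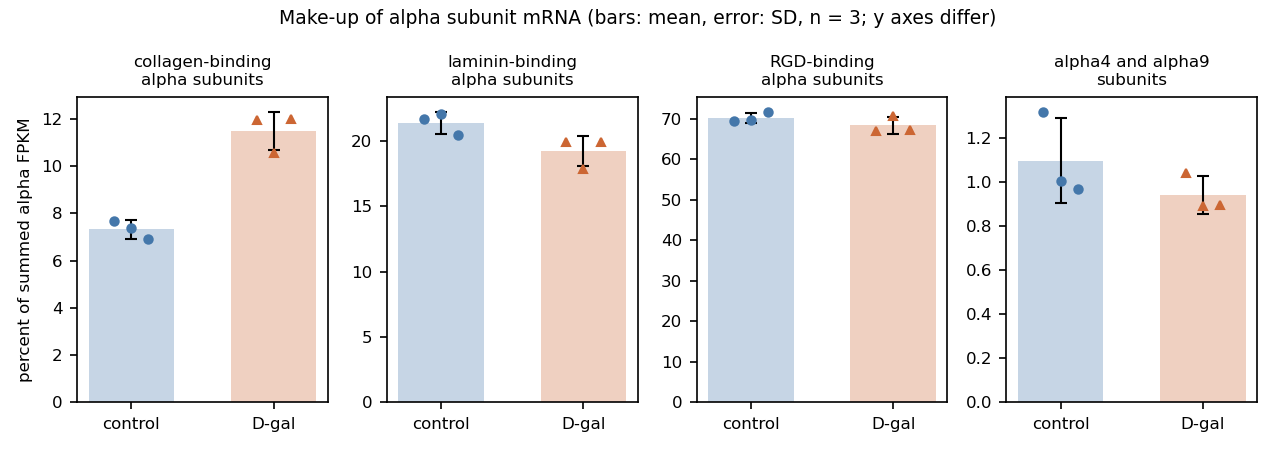
Percent of the summed alpha subunit FPKM held by each class of alpha subunit, with bars for the mean, error bars for the SD (n = 3) and a point for each library, on y axes that start at 0 and differ between panels. The collagen-binding share has a mean of 7.32% in control and 11.5% under D-gal without overlap, and the RGD-binding share overlaps between the groups.

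Ratios of FPKM between subunits of like ligand were also compared, which were chosen after the values were seen. The ratio of Itga1 to Itga11 was 0.866, 0.836 and 0.944 in control and 1.89, 1.73 and 1.57 in D-gal libraries. By the deposited length Itga1 was thus below Itga11 in every control library and above it in every D-gal library. With the merged exon length Itga1 was the lower one in both groups, at 1.16 against 4.27 in control and 2.52 against 4.74 under D-gal. The ratio of Itga6 to Itga3 was 0.0232 ± 0.000509 in control and 0.00795 ± 0.00113 under D-gal, and that of Itga8 to Itga5 was 0.00427 ± 0.000802 and 0.0107 ± 0.000959 (SD, n = 3). In each of these ratios the groups did not overlap.

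Of the 16 genes of focal adhesion proteins, all tested, 10 rose, 1 fell and 5 did not pass, with a median log2 fold change of 0.19. These are values of mRNA, and protein was not measured. The share that rose was 62.5%, beside the 16.9% of all genes given above. None was differentially expressed, since all changes were under 1 on the log2 scale (0 of 16 by edgeR, by DESeq2 and at an unadjusted p under 0.05). The rises were modest in size and tight between replicates. The smallest p of all members belonged to Tns3, a tensin, with 4545, 4686 and 4647 normalized counts in control and 6177, 6175 and 6098 in D-gal libraries. This is a rise of 32.9% with a log2 fold change of 0.41 (SE 0.03, adjusted p = 4.09e-05).

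The mRNAs of signalling proteins at the adhesion rose in part. Ptk2, which encodes focal adhesion kinase, had 2207, 2344 and 2178 normalized counts in control and 3101, 3105 and 2975 in D-gal libraries, with a log2 fold change of 0.45 (SE 0.04, adjusted p = 0.000135). Bcar1, a docking protein of the Cas family that this kinase and Src phosphorylate, had 3632, 3781 and 3605 in control and 4968, 5031 and 4857 in D-gal libraries, with a log2 fold change of 0.43 (SE 0.03, adjusted p = 6.3e-05). For both, every D-gal library was far above every control library. Src itself had 1956, 1894 and 1885 normalized counts in control and 3082, 1979 and 1968 in D-gal libraries, so that its log2 fold change of 0.29 (adjusted p = 0.192) came down to 0.05 without D-gal 1. Pxn (paxillin, a scaffold) varied within each group, from 1531 to 2064 in control and from 1238 to 1751 under D-gal, and its log2 fold change of -0.22 did not pass (adjusted p = 0.295).

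Among the mRNAs of proteins that activate integrins and link them to actin, that of the rarer talin rose. Tln2 had 1407, 1475 and 1475 normalized counts in control and 1871, 1991 and 1987 in D-gal libraries, a log2 fold change of 0.42 (SE 0.04, adjusted p = 0.000209). Tln1, the main talin of fibroblasts, had 13875 to 14438 in control and 13743 to 14075 under D-gal, and the 95% interval of its log2 fold change was -0.08 to 0.05. The ratio of Tln2 to Tln1 FPKM was 0.0934 ± 0.00262 in control and 0.127 ± 0.00550 under D-gal (SD, n = 3). Its groups did not overlap, but with Tln1 nearly level this ratio restates the rise of Tln2. Fermt2 (kindlin-2, which binds the beta tail beside talin) rose by 13.3%, with a log2 fold change of 0.18 (SE 0.04, adjusted p = 0.00603). Vcl had 13721, 13445 and 13796 normalized counts in control and 15857, 15559 and 15612 in D-gal libraries, a rise of 14.8% (log2 fold change 0.20, SE 0.02, adjusted p = 0.00063). The D-gal libraries of Vcl were closer to each other than to any control library, but 2090 of its 8191 exon bases are shared with Ap3m1 on the other strand, whose log2 fold change was -0.28 (adjusted p = 0.16), and it is not stated whether counting used the strand.

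A CArG box, though with different letters, was found in front of the start sites of both Vcl and Fermt2. RefSeq promoter windows (GRCm38.p6, 250 bases before to 50 after a start) were matched for 27 of the 36 members with 33 windows. These windows were searched on both strands for the CArG box (CC, 6 bases of A or T, GG), which is the binding motif of serum response factor, and for GGAATG, a core motif of TEAD factors. The CArG box occurred in 1.63% of 32851 promoter windows of the genome, and among members in those of Vcl, Fermt2 and Itgb6. The letters GGAATG occurred in 14.7% of all windows, and among members in those of Vcl, Flna, Itga10 and Itgb1. The motifs and windows were chosen after the expression values were known, and a match is a description of letters and not a binding site. The bases before the start that no annotated exon covers are printed for Vcl and Fermt2, the rising members with a CArG box, and for Itga1, the subunit with the smallest p, which held neither motif. They run 5′ to 3′ on the gene's strand, with motif matches in capitals.
Vcl, chr14:20929148-20929397, plus strand: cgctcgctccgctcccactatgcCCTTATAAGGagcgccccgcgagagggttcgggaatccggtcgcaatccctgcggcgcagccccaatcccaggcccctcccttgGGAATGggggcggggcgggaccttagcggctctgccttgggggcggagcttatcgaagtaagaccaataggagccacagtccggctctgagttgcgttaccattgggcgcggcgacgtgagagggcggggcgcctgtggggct
Fermt2, chr14:45530119-45530315, minus strand: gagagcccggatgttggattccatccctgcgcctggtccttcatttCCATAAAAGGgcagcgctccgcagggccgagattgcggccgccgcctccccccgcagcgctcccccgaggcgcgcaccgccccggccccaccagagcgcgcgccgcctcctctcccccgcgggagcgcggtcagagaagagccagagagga
Itga1, chr13:115101965-115102214, minus strand: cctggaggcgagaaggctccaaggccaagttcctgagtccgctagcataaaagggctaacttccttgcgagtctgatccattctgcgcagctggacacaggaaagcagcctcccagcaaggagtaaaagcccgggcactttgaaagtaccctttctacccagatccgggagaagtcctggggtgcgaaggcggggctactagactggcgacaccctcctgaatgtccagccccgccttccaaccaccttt
In Vcl the CArG box lay 227 to 218 bases and GGAATG 143 to 138 bases before the start, and in Fermt2 the CArG box lay 204 to 195 bases before it. For Fermt2 the last 53 bases before the RefSeq start are left out because an annotated exon covers them.

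The mRNAs of the complex of ILK, PINCH and parvin did not move as one, and the complex itself was not measured. Lims1 (PINCH) had 4796, 4657 and 4907 normalized counts in control and 5602, 5933 and 5930 in D-gal libraries, with a log2 fold change of 0.28 (SE 0.04, adjusted p = 0.000768). Ilk (integrin-linked kinase, a pseudokinase that serves as the scaffold) rose by 18.8%, with 2528 to 2616 in control and 2919 to 3170 under D-gal (log2 fold change 0.25, adjusted p = 0.00232). Parva, the parvin that binds actin, had 6002, 6950 and 7038 in control and 5796, 5727 and 5651 in D-gal libraries. It fell, with a log2 fold change of -0.22 (SE 0.06, adjusted p = 0.0223), but the lowest control library was close to the D-gal libraries and the call did not last. Without control 2, control 3, D-gal 2 or D-gal 3 the adjusted p of Parva lay between 0.0587 and 0.0735. The ratio of Lims1 to Parva FPKM was 1.44 ± 0.136 in control and 2.03 ± 0.0885 under D-gal. That of Ilk to Parva was 0.600 ± 0.0496 and 0.826 ± 0.0393. Neither ratio overlapped between groups, which follows from the genes' own values. Lims1 and Ilk were higher and Parva lower in every D-gal library, so the ratios add no separate evidence. The counts of Ilk are uncertain, because 2461 of its 2744 exon bases are shared with Rrp8 and Taf10 on the other strand, of which Taf10 fell with a log2 fold change of -0.22 (adjusted p = 0.0289) and Rrp8 had 0.12 (adjusted p = 0.342).

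The mRNAs of proteins of the actin side rose slightly or did not pass. Flna had 42349, 46002 and 45489 normalized counts in control and 51467, 50168 and 48103 in D-gal libraries, with a log2 fold change of 0.16 (SE 0.04, adjusted p = 0.0129). Zyx (zyxin, which gathers at stretched adhesions) rose by 10.1% (log2 fold change 0.14, adjusted p = 0.0123), with 6744 to 7091 in control and 7453 to 7778 under D-gal. The groups of both did not overlap. Zyx shares 236 of its 5390 exon bases with Epha1 on the other strand, which rose with a log2 fold change of 0.30 (adjusted p = 0.0229). The part of this overlap in the value of Zyx was not tested. Vasp, which promotes actin filament growth, had a log2 fold change of 0.10 (adjusted p = 0.211) and passed only without D-gal 2 (adjusted p = 0.0423). Tns1 had 0.06 (adjusted p = 0.411), so that of the tensins in the list Tns3 alone passed.

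Itgav showed values at 2 levels that did not follow the groups. It had 2169, 2186 and 4318 normalized counts in control and 2154, 4087 and 2191 in D-gal libraries. Control 3 and D-gal 2 were thus far above the other 4 libraries, which lay close together, and the 95% interval of the log2 fold change was -0.79 to 0.72. Among 4076 tested genes with a mean of at least 1000 normalized counts, 150 (3.68%) had a range over 1.5-fold within a group, and among 21 such members Itgav and Src did. The pattern of Itgav, with control 3 and D-gal 2 at least 1.5-fold above the other libraries, was shared by Vps26a, Ss18, Mat2a and Serpinh1 and by no other of the 4076 genes. Itgav is the alpha partner of Itgb3, Itgb5 and Itgb8. These values enter the RGD-binding share given above and, through the summed alpha FPKM, the shares of the other classes. In control 3 and D-gal 2 the collagen-binding share was 6.90% and 10.6%, each the lowest of its group. The laminin-binding share of these libraries, 20.5% and 17.9%, was also the lowest of each group.

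**Figure D4:**
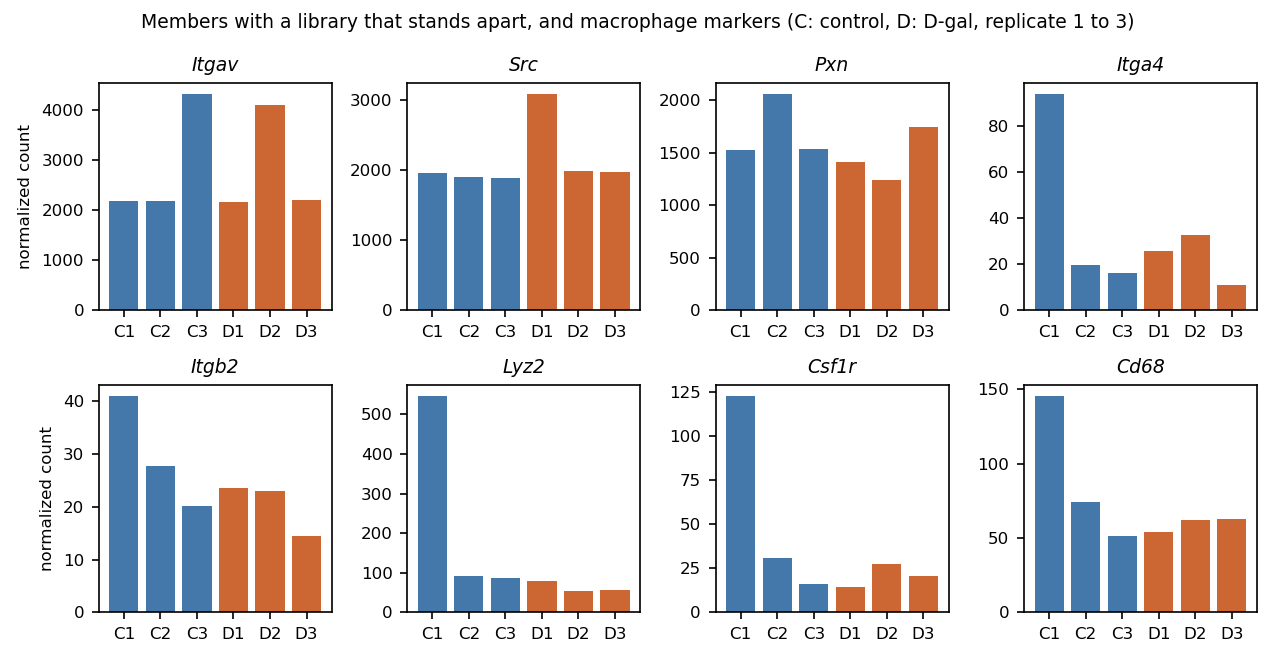
Normalized count in each library (C for control, D for D-gal, replicates 1 to 3) of 5 members with a library that stands apart and of 3 macrophage markers, on axes that start at 0. Itgav is highest in C3 (4318) and D2 (4087), Src is highest in D1, and Itga4 and the macrophage markers Lyz2, Csf1r and Cd68 are highest in C1.

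The other integrin subunits, together with the related gene Itgbl1, were read from a list of 7 genes with 8 identifiers, most of them known from leukocytes and platelets. Of these 2 were tested. Itgbl1, which encodes a secreted protein with repeats like those of beta subunits, fell from 20.9, 35.1 and 35.3 normalized counts to 4.49, 13.1 and 13.3, with a log2 fold change of -1.56 (SE 0.41, adjusted p = 0.0197). Itga2b, the platelet subunit, had -0.31 (adjusted p = 0.0544).

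In the wider set of adhesion genes rises and falls were about equally frequent. Of 87 other genes of adhesion sites with 88 identifiers, 85 were tested. Of these 19 (22.4%) rose and 22 (25.9%) fell, beside 16.9% and 17.8% of all genes tested. The median log2 fold change was -0.06. Nedd9, a docking protein of the same family as Bcar1, rose from 1183, 1282 and 1278 normalized counts to 1992, 2141 and 2079, a log2 fold change of 0.73 (SE 0.05, adjusted p = 3.01e-05). Tns2, named after its value was seen, had a log2 fold change of -0.84 (adjusted p = 0.000116), opposite to Tns3. Lims2, the paralogue of Lims1, was the 1 gene of this list that was differentially expressed, with 45.4 to 74.1 normalized counts in control and 140.3 to 146 under D-gal (log2 fold change 1.25, adjusted p = 0.00105), and it overlaps Gpr17 on the other strand. Ppfibp1 (liprin-beta) rose, with a log2 fold change of 0.34 (adjusted p = 6.3e-05). Actn1 and Actn4, the alpha-actinins of non-muscle cells, which were also chosen after their values were seen, had log2 fold changes of 0.12 (adjusted p = 0.018) and -0.12 (adjusted p = 0.0176).

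Genes of the ligands of the receptors fell in larger part. Besides matrix genes the list holds the cell surface genes Icam1, Icam2, Vcam1, Adam9 and Adam15 and the growth factor gene Tgfb1. Of 51 genes 43 were tested, of which 8 (18.6%) rose and 23 (53.5%) fell, beside 16.9% and 17.8% of all genes tested. The median log2 fold change was -0.17. Differentially expressed were 7, namely Fn1 (fibronectin, -1.27), Col3a1 (-1.18), Tgfbi (-2.64) and the laminin chains Lama4 (-1.04) and Lama2 (-1.04) among those that fell, and Tnn (tenascin-W, 4.17) and Vwf (1.66) among those that rose. Vwf is also among the endothelial markers, whose summed normalized counts were 74.1 to 106 per library, so its rise rests on few counts. Nid1 (nidogen, which joins laminin to collagen IV) had a log2 fold change of -0.93 (adjusted p = 2.2e-06). Col4a1 and Col4a2, the common chains of collagen IV, which were named after their values were seen, rose with log2 fold changes of 0.55 (adjusted p = 3.46e-05) and 0.47 (adjusted p = 1.35e-05), and each overlaps the other on the opposite strand. Npnt (nephronectin), the ligand of Itga8 that was looked up after the values were seen, had 6158 to 6383 normalized counts in control and 5761 to 6287 under D-gal, a log2 fold change of -0.07 (adjusted p = 0.198).

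Genes known as targets of serum response factor or of YAP, which respond to actin and adhesion, were more often higher than lower. Of 30 genes 29 were tested, of which 15 (51.7%) rose and 4 (13.79%) fell, beside 16.9% and 17.8% of all genes tested. The median log2 fold change was 0.16. The smallest p values nonetheless included genes that fell, Egr1 (log2 fold change -0.77, adjusted p = 6.23e-06) and Tagln2 (-0.94, adjusted p = 1.75e-05), with Crim1 (0.45, adjusted p = 2.73e-05) among those that rose. Egr1 and Egr2 are immediate early genes, and Egr2 fell with a log2 fold change of -1.51 (adjusted p = 0.00347). Lats2, a kinase that restrains YAP, had 1412 to 1421 normalized counts in control and 2310 to 3196 under D-gal (log2 fold change 1.01, adjusted p = 0.000308), and it overlaps an annotated gene on its strand.

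**Figure D5:**
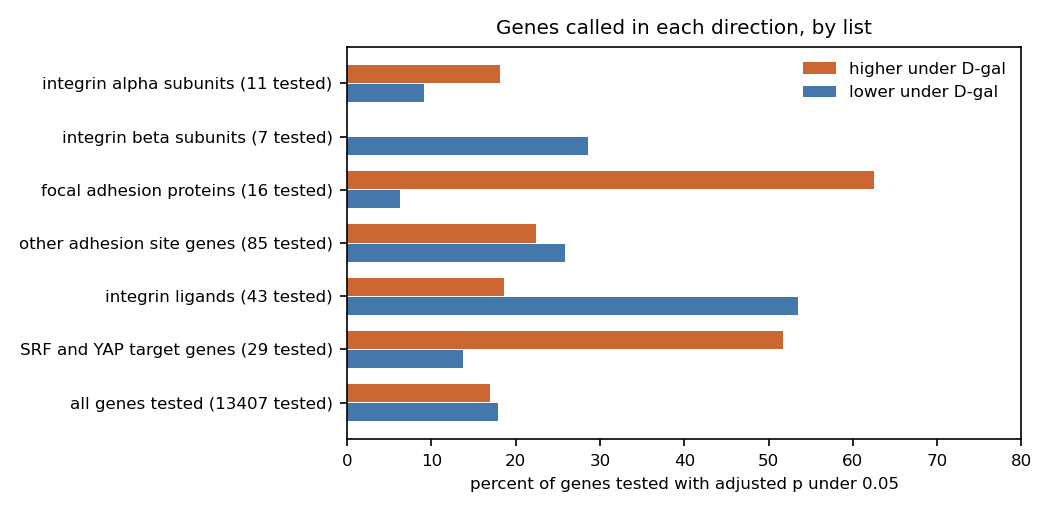
Percent of the tested genes of each list with an adjusted p under 0.05 in edgeR's quasi-likelihood test, separately for genes higher and lower under D-gal, with all 13407 genes tested at the bottom (16.9% higher and 17.8% lower). Focal adhesion proteins and targets of SRF and YAP have the longer bar on the higher side (62.5% and 51.7%), and integrin ligands on the lower side (53.5%).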

How the data were processed

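RNA-seq of NOR-10 cells was analysed from the deposited gene table, with 3 control and 3 D-gal libraries grouped by the sample labels. Dose and duration came from the paper's methods. The authors deposited a raw read count per gene and library without normalization, and FPKM values, which the authors computed per gene length and library size. The labels name an RNA-seq library kit, whereas the paper's methods name a small RNA kit, and the submitters' processing notes name HISAT2 (version 2.0.4). The counting tool, the use of strand and the annotation are not given in the sources used here.

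In R 4.3.3, edgeR (version 4.0.16) scaled the counts by TMM, kept 13407 genes by filterByExpr and tested them by quasi-likelihood, with p-values adjusted by Benjamini and Hochberg. The biological coefficient of variation was 9.47%. To normalize, each count was divided by its library's effective size (total times TMM factor), then scaled back by the mean effective size. Shares and ratios of FPKM were compared by two-sided exact permutation tests (10 arrangements of 3 against 3 libraries). On simulated counts of these libraries, edgeR recovered 40 of 50 genes changed by 1.5-fold and 50 of 50 changed by 2-fold. It made 8 false calls among the genes left unchanged. Smaller folds, such as those of every focal adhesion gene that rose, were not simulated. The simulation gave every gene the same biological coefficient of variation and changed only genes with a mean of at least 50 normalized counts. Recovery of members with fewer counts or more spread was not tested.

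The members, gene lists and tests were chosen with earlier results of these data known. Values per library are given for the 8 tested members with the smallest p and the member with the highest FPKM in each role, and of each other list the 3 genes with the smallest p and those differentially expressed are named. Of the genes this rule names, 1 is not reported here. Itgb3, Itgb8, Itga3, Itga4, Itgav, Src, Lims1 and Parva were given per library after their values were seen. The alternatives were DESeq2 (version 1.42.0), limma (version 3.58.1) on log2(FPKM + 1), RLE size factors, no filter or a minimum of 10 counts per library, a replicate block, each library left out, thinned counts (seed 7) and offsets for GC content and length. Exon overlaps were read from GENCODE release M21.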

Additional observations from a re-analysis of the deposited data

How the results depend on the processing

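Of the 34 members tested, 31 kept their call under the alternatives that gave them a value, and the exceptions were Itga3, Parva and Vasp. Parva lost its call with limma on log2(FPKM + 1) (adjusted p = 0.0591) and in 4 of the 6 fits without a library, whereas Itga3 gained one without the filter and without D-gal 1, and Vasp without D-gal 2. With each replicate left out in turn, 12 to 13 members rose, 3 to 5 fell and 4 were differentially expressed.

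Limma on log2(FPKM + 1) gave 0 differentially expressed members in place of 4, and 0, 4 and 1 genes of the other integrin subunits, the ligands and the SRF and YAP targets in place of 1, 7 and 2, since the added 1 shrinks the fold of genes with low FPKM. With a minimum of 10 counts per library 0 genes of the list of other integrin subunits fell and 0 were differentially expressed. Itgbl1, which is on that list but not itself a subunit, was then no longer tested. Without 1 replicate, 0 to 2 genes of this list fell and 0 to 1 were differentially expressed, the call being lost without D-gal 1, control 2 or control 3. Of the SRF and YAP targets 1 to 2 were differentially expressed in those fits, 1 of them without D-gal 3. With the merged exon length the collagen-binding share differed by 1.86 and the RGD-binding share by 0.31 percentage points.

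Libraries of the same replicate number did not deviate together (r = -0.0114, -0.00269 and 0.0277), with r of -0.0248 to 0.0282 between different numbers. No pairing was thus visible, but the labels do not state whether the samples were prepared in pairs. With the replicate number as a block 12 members rose and 4 fell, as without it, and 2 other adhesion site genes were differentially expressed in place of 1. Itga2 and Itgb6 had too few counts to be tested, and the 95% interval of the log2 fold change of Itgb4 (-1.87 to 1.79) left its direction undetermined.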
